A study of Homo sapiens with 21 samples.

Results

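Chemokine genes were followed across RNA-seq libraries of the Ewing sarcoma line A673, in which the oncogenic fusion EWS/FLI was depleted and replaced by mutant forms. The set holds every protein-coding gene whose symbol is CCL or CXCL followed by a number, together with CX3CL1, XCL1 and XCL2 and without CXCL12. IL8 was read as CXCL8. The annotation lists 40 such genes, of which 32 were matched by identifier in a count table of 57820 genes and 19 averaged 1 count or more over the libraries. CCL3, CCL4, CCL5, CCL14, CCL15, CCL16, CCL18 and CCL23 carry identifiers that did not match the table and are not analysed here. The 4 paralog copies with letters after the number, such as CCL3L1, were not counted as members.

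The 21 libraries formed 7 groups of 3, and all cells of this one line were transduced with an shRNA on day 1 and a cDNA vector on day 5 and selected with puromycin (2 µg/ml) and hygromycin (400 µg/ml) until day 16. iLuc cells carried an shRNA against luciferase with an empty vector and kept the endogenous fusion, and their difference from depleted cells is called endo-EF. iEF cells carried the shRNA against EWS/FLI with an empty vector. The remaining groups carried the iEF shRNA and a tagged cDNA. WT-EF is full-length EWS/FLI, Δ22 (del22) lacks the EWS domain, and DAF has tyrosines of the N-terminal EWS repeats replaced by alanine. In mut9 only both ends of the EWS domain remain, and DAF-mut9 carries the tyrosine changes within mut9. The table writes DAF-mut9 as mut9d, a match made through the titles, and every DAF-mut9 value depends on it. The replicate numbers mark repeat depletion and rescue experiments in the same line, so the p-values measure the spread between such experiments and not between tumors.

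Chemokines are small secreted proteins that draw leukocytes along a gradient through G protein-coupled receptors. CXC chemokines with a Glu-Leu-Arg (ELR) motif attract neutrophils through CXCR1 and CXCR2, interferon-inducible CXC chemokines attract activated T cells through CXCR3, and the monocyte chemoattractant proteins act through CCR2. Many of these genes are switched on by NF-κB downstream of TNF and interleukin-1, and some by interferon-activated factors.

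The libraries held 32.9 to 46.2 M counts each, and 1 CPM (counts per M counts of the library, scaled by TMM) stood for about 32.0 to 45.2 counts. FLI1, whose 3′ part is in the fusion and in every rescue cDNA, was at 20.8, 20.02 and 21.1 CPM in the 3 iEF libraries and at 61.3, 60.6 and 89.05 CPM in iLuc. WT-EF held 21.9, 25.2 and 26.5 CPM, only just above iEF, and every other construct lay between 28.3 and 62.0 CPM. In the paper the shRNA targets the 3′UTR of the fusion, and whether the cDNAs carry that part is not stated. FLI1 counts of endogenous transcripts and of cDNAs may thus cover different lengths, so these values do not measure how strongly a construct was expressed relative to iLuc. Of 8 Ewing sarcoma markers CD99 was near 0, at no more than 0.219 CPM in any library, while the summed level of the list was 956 to 1021 CPM in iLuc and 118 to 145 CPM in iEF. Among 10 leukocyte markers CD3D, CD3E, LYZ and MS4A1 stayed below 0.1 CPM in every group mean. The summed leukocyte list lay at 2.13 to 2.39 CPM in iLuc and 5.82 to 28.4 CPM in iEF, where ITGAM reached 25.0 CPM in replicate 3. Of the 7 leukocyte markers tested, DAF raised 1 and lowered 2 against iEF, beside 3.41% of all genes higher and 4.02% lower. In iLuc 1 was higher and 3 were lower, beside 18.7% and 22.4% of all genes. CD14 was at 3.14, 2.68 and 2.97 CPM in DAF against 0.817, 0.876 and 0.405 CPM in iEF, ITGAM at 0.573, 1.12 and 1.25 against 2.57, 2.10 and 25.05 CPM and CSF1R at 1.23, 1.09 and 0.844 against 2.57, 2.03 and 2.00 CPM. The 4 fibroblast genes summed to 93.3 to 94.9 CPM in iLuc and 267 to 483 CPM in iEF, but only COL1A1 was lower in iLuc (10.3 against 268 CPM), while DCN was higher (1.08 against 0.264 CPM) and PDGFRB and THY1 were not called. The part of these markers in the chemokine values was not tested, and in bulk RNA fewer cells that express a gene and less RNA per cell cannot be told apart. Replicate 2 of mut9 was the lowest mut9 library for 11 of the 13 chemokine genes described by library. Other groups also had such a library, replicate 1 of DAF and of DAF-mut9 being the lowest for 12 and replicate 3 of Δ22 for all 13. Replicate 2 of iEF was the highest iEF library for 11 of them, and replicate 2 of DAF and of Δ22 the highest for all 13.

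The promoters of 9 members that moved, and of the near-silent CXCL5, are shown because several share 1 stretch of letters. RefSeq windows on GRCh38.p14 were matched by symbol for 11 of the 13 genes described by library, which leaves out CCL2 and CX3CL1. CCL7 and CCL8 have windows too, but these held 0 marked matches and are not shown. Each line below gives the 150 bases before the transcription start, 5′ to 3′ on the strand of the gene, and capitals mark matches on either strand to GGAATTTCC or to the NF-κB consensus, which overlap each other. On the plus strand lie CXCL8 (chr4:73740419-73740568), CXCL6 (chr4:73836528-73836677), CXCL1 (chr4:73869243-73869392) and CCL20 (chr2:227813692-227813841). On the minus strand lie CXCL3 (chr4:74038690-74038839), CXCL2 (chr4:74099196-74099345), CXCL5 (chr4:73998678-73998827), CXCL9 (chr4:76007510-76007659), CXCL10 (chr4:76023498-76023647) and CXCL11 (chr4:76036071-76036220).
CXCL8: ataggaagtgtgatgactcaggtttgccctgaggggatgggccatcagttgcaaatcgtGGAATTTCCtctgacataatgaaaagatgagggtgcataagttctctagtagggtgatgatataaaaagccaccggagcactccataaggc
CXCL1: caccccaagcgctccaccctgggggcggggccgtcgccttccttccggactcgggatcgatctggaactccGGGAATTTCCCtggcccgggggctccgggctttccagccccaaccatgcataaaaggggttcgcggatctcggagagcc
CXCL2: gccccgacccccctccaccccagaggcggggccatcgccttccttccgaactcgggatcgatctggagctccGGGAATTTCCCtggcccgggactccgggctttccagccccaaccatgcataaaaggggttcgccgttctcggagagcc
CXCL3: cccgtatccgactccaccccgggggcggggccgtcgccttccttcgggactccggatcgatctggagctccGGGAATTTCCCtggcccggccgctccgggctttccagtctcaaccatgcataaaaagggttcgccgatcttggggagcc
CXCL6: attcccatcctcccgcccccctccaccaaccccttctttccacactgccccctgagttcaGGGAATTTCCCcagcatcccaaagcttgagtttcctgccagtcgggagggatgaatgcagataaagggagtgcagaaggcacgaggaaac
CXCL5: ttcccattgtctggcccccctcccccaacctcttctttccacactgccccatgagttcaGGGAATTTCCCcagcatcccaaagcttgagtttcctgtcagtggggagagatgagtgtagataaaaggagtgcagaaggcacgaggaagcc
CCL20: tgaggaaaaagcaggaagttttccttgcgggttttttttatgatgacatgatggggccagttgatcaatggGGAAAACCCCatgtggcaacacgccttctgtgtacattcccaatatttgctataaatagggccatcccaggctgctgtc
CXCL10: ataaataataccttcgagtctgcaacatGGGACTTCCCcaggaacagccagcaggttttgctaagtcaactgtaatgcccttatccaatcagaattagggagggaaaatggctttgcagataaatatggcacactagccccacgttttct
CXCL11: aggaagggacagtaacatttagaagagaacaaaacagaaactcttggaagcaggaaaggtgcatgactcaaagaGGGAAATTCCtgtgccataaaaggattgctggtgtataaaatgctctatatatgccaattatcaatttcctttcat
CXCL9: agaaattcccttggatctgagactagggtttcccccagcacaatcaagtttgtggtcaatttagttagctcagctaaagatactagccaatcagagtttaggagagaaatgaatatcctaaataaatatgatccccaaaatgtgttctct

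Within 250 bases before the start, GGAATTTCC was found in 7 of the 11 promoters (CXCL1, CXCL2, CXCL3, CXCL6, CXCL8, CXCL10 and CXCL11), against 0.413% of 35116 promoters of the same length. The NF-κB consensus was found in 7 (CXCL1, CXCL2, CXCL3, CXCL6, CXCL10, CXCL11 and CCL20), against 9.96% of all. GGAATTTCC was singled out because several of these promoters share it, so its count is a description and not a test of enrichment. Several of the genes are close relatives with similar promoters, and most of those listed hold both patterns at overlapping bases. CXCL1, CXCL2 and CXCL3 hold the shared stretch at nearly the same distance, its last base lying 70, 69 and 70 bases before the start. In CXCL6 and CXCL8 that base lies 81 and 83 bases before it. CXCL5 carries the stretch 82 bases before its start and was almost without counts in these cells. TGANTCA, a looser pattern that includes the AP-1 motif TGACTCA, was present in CCL7, CXCL8 and CXCL11, against 6.57% of all promoters. CXCL8 and CXCL11 held TGACTCA, whereas CCL7 held TGATTCA. The core of the interferon-stimulated response element, a pair of GAAA separated by any 2 bases, was present in CXCL9 and CXCL10, against 3.02%. GGAAGGAA, a pair of ETS cores such as FLI binds, was present in CXCL1 and CXCL2 on the opposite strand, against 3.06%. These are matches of letters in one window and not measured binding.

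Depleted cells were chemokine-rich and cells with the endogenous fusion were not. Member genes took 0.275 to 0.551% of all counts in the iEF libraries and 0.00288 to 0.00517% in iLuc. WT-EF held 0.0182 to 0.0255%, mut9 0.0419 to 0.171%, DAF 0.177 to 0.317%, DAF-mut9 0.149 to 0.217% and Δ22 0.181 to 0.284%. CXCL8 alone made up 62.6 to 88.7% of these counts. No mut9, DAF, DAF-mut9 or Δ22 library was as low as a WT-EF library, and no WT-EF library as low as an iLuc library.

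Relative to iEF, 13 of the 19 tested chemokine genes were lower and 0 higher in iLuc, where 41.1% of all 30549 tested genes changed and 22.4% were lower. WT-EF lowered 13 and raised 0, against 28.3% changed and 16.9% lower among all genes. mut9 lowered 8 and raised 0 (14.6% changed, 8.33% lower, 6.22% higher). DAF lowered 3 and raised 2 (7.42% changed, 4.02% lower, 3.41% higher). DAF-mut9 lowered 3 and raised 1 (3.4% changed, 2.14% lower, 1.26% higher). Δ22, without the EWS domain, lowered 4 and raised 0 (2.67% changed, 1.79% lower, 0.881% higher). The median log2 fold change of the 19 genes was -4.78 in iLuc, -3.74 in WT-EF, -0.56 in mut9, -0.38 in DAF, -0.19 in DAF-mut9 and -0.68 in Δ22, and that of all genes lay between -0.03 and 0.02 in these comparisons. All 6 comparisons share the iEF libraries. Over the 13 comparisons made, 76 of 78 calls had 1 sign in each of the 3 replicate sets, the exceptions being CCL8 in mut9 against iEF and CXCL6 in mut9 against WT-EF. The calls came from these same libraries, so this count is no separate check. The share among all called genes was not computed.

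**Figure D1:**
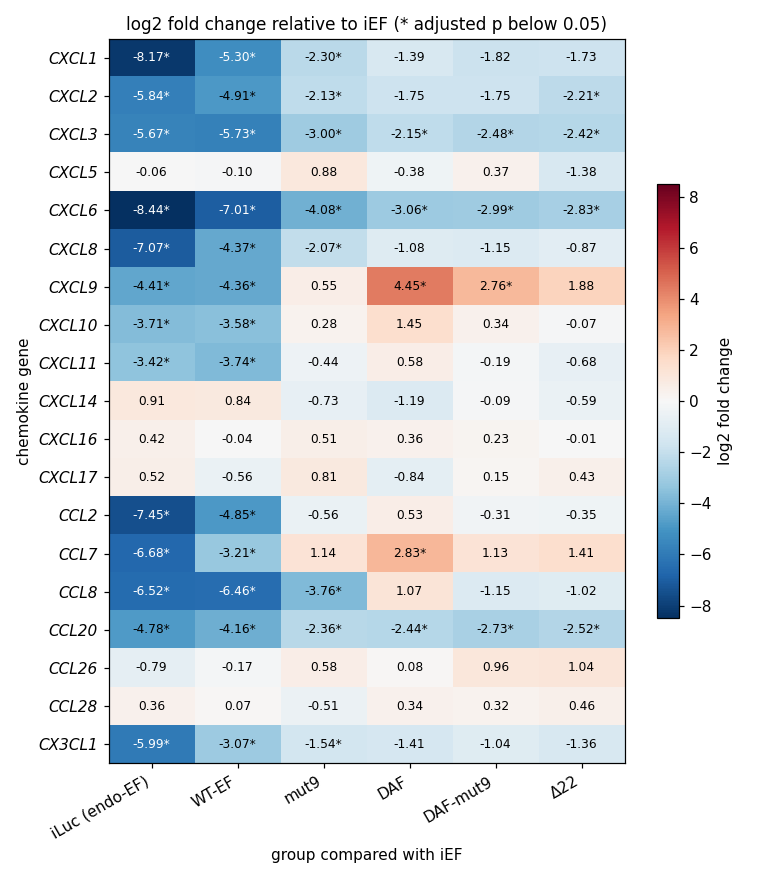
Fitted log2 fold change of the 19 tested chemokine genes (rows) in each group relative to iEF (columns), with blue for lower and red for higher than iEF and an asterisk at an adjusted p below 0.05. The iLuc and WT-EF columns hold 13 lower genes each, the other columns are paler, and CXCL9 in DAF is the reddest cell at 4.45; where a group had almost no counts (CCL7, CCL8, CXCL9) the fitted value depends on the prior count.

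Calls for the mutants rested on few libraries. Without replicate 2 of mut9, 5 genes were called in mut9 against iEF, since CCL8 (adjusted p = 0.320), CX3CL1 (0.192), CXCL2 (0.0637) and CCL20 (0.0535) were lost and CCL7 became higher (log2 fold change 1.87, adjusted p = 0.0268). In DAF the count in either direction was 8 without replicate 1 of iEF and 3 without replicate 1 or 3 of DAF. In DAF-mut9 it was 2 without replicate 3 of iEF and 1 without replicate 1 or 2 of DAF-mut9. In Δ22 it was 1 without replicate 2 or 3 of iEF and 0 without replicate 1 or 3 of Δ22.

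CXCL8 (interleukin-8), which recruits neutrophils, led the set, and with its ELR relatives it lies on chromosome 4 (GRCh37) between bases 74606236 and 74964913. Per kilobase of exon it was the highest chemokine gene in iEF at 1355 ± 398 CPM per kb (SD, n = 3), ahead of CCL2 at 219 ± 143 and CXCL1 at 124 ± 57.3 CPM per kb. Its level was 2328, 4228 and 3964 CPM in the iEF replicates, 32.4, 30.7 and 16.6 CPM in iLuc and 211, 126 and 178 CPM in WT-EF. These 3 groups did not overlap, and WT-EF stood between the other two. In mut9 it was 1177, 293 and 1046 CPM, with replicate 2 the lowest. DAF held 1609, 2256 and 1162 CPM, DAF-mut9 1288, 1738 and 1742 CPM and Δ22 1979, 2223 and 1594 CPM, all under the lowest iEF library but overlapping one another. iLuc was 134-fold below iEF (log2 fold change -7.07 ± 0.48 (SE), adjusted p = 2.03e-10) and WT-EF 20.6-fold below (log2 fold change -4.37 ± 0.42 (SE), adjusted p = 1.13e-07). mut9 was 4.21-fold below iEF (log2 fold change -2.07 ± 0.39 (SE), adjusted p = 0.000692). For DAF the difference was -1.08 on the log2 scale with an adjusted p of 0.0877, for DAF-mut9 -1.15 with 0.104 and for Δ22 -0.87 with 0.271. DAF (-1.37, adjusted p = 0.0377) and DAF-mut9 (-1.42, adjusted p = 0.0458) were called when replicate 1 of iEF was left out. In fits of just the compared groups CXCL8 was called lower in DAF (adjusted p = 0.00733), DAF-mut9 (0.00126) and Δ22 (0.0229). It was called lower in these groups with no low-count filter too.

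CXCL1, CXCL2 and CXCL3, the GRO chemokines, also act on CXCR2. CXCL1 stood at 118, 259 and 130.5 CPM in iEF, 0.719, 0.530 and 0.501 CPM in iLuc and 5.65, 3.07 and 4.03 CPM in WT-EF. The groups were again fully apart, with iLuc 288-fold below iEF (log2 fold change -8.17 ± 0.75 (SE), adjusted p = 1.72e-08) and WT-EF at -5.30 ± 0.62 on the log2 scale (adjusted p = 1.4e-06). mut9 libraries held 41.6, 5.72 and 55.6 CPM of CXCL1, DAF 55.97, 76.2 and 60.6, DAF-mut9 33.9, 40.4 and 69.9 and Δ22 48.9, 78.03 and 24.6 CPM. Each of these libraries lay below every iEF library, yet only mut9 passed the main test (log2 fold change -2.30 ± 0.55 (SE), adjusted p = 0.00589), with DAF at 0.12, DAF-mut9 at 0.063 and Δ22 at 0.0876. In fits of just the compared groups CXCL1 was also called lower in DAF (adjusted p = 0.0004), DAF-mut9 (0.00522) and Δ22 (0.000191). With no low-count filter it was called lower in these groups as well. CXCL3 levels were 17.9, 33.9 and 43.7 CPM in iEF, 0.822, 0.575 and 0.426 in iLuc and 0.721, 0.581 and 0.442 in WT-EF, and here the iLuc and WT-EF libraries overlapped. In mut9 CXCL3 was at 6.06, 1.03 and 4.33 CPM, in DAF at 5.38, 10.5 and 5.50, in DAF-mut9 at 3.13, 3.92 and 9.99 and in Δ22 at 4.77, 10.3 and 2.55 CPM. It was called lower than iEF in all 6 groups, from -5.73 ± 0.67 (adjusted p = 1.17e-06) in WT-EF to -2.15 ± 0.53 (adjusted p = 0.0153) in DAF on the log2 scale. The CXCL3 call was lost in DAF without replicate 3 of iEF or replicate 1 or 3 of DAF (adjusted p from 0.0790 to 0.0952). It was lost in DAF-mut9 without replicate 3 of iEF or replicate 1 or 2 of DAF-mut9 (0.0974 to 0.112), and in Δ22 without replicate 3 of iEF or replicate 1 or 3 of Δ22 (0.0870 to 0.149). CXCL2 was more scattered, at 13.7, 62.01 and 27.5 CPM in iEF, 0.539, 0.906 and 0.200 in iLuc and 0.889, 1.62 and 0.639 in WT-EF. It was lower in iLuc (log2 fold change -5.84 ± 0.71 (SE), adjusted p = 9.53e-07), WT-EF (log2 fold change -4.91 ± 0.66 (SE), adjusted p = 7.88e-06) and mut9 (log2 fold change -2.13 ± 0.58 (SE), adjusted p = 0.0145). mut9 held 8.90, 2.04 and 6.57 CPM, DAF 4.45, 18.1 and 7.82 and DAF-mut9 4.29, 7.05 and 15.0 CPM. DAF (-1.75 ± 0.55, adjusted p = 0.0591) and DAF-mut9 (-1.75 ± 0.56, 0.098) were not called. Both were called in fits of just the compared groups (6.47e-05 and 0.0149). DAF was also called without replicate 1 of iEF (0.0431) and DAF-mut9 without its replicate 3 (0.0348). In Δ22, at 4.39, 13.9 and 3.69 CPM, the call (log2 fold change -2.21 ± 0.56, adjusted p = 0.0377) was lost without any 1 of 5 of the 6 libraries compared (adjusted p from 0.0615 to 0.231), with no replicate block (0.0874) and with ComBat values (0.0628). The mut9 call of CXCL2 was lost without replicate 2 (adjusted p = 0.0637) or 3 (0.0533) of mut9. Of the 100-base windows of CXCL2 5.34% also occur in CXCL3, so a small share of their reads may be uncertain.

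CXCL6 (granulocyte chemotactic protein 2) had the largest fitted iLuc difference of the ELR genes. In iEF it was at 73.6, 261 and 52.04 CPM, with replicate 2 several times the others, and in iLuc at 0.283, 0.420 and 0.276 CPM. WT-EF held 1.03, 1.19 and 0.442 CPM, mut9 9.09, 1.15 and 7.13, DAF 8.49, 19.3 and 13.2, DAF-mut9 8.81, 11.1 and 19.4 and Δ22 14.8, 35.9 and 3.38 CPM. Every other library lay below all iEF libraries, and CXCL6 was called lower in all 6 groups. The log2 differences were -8.44 ± 0.92 in iLuc (adjusted p = 2.08e-07), -7.01 ± 0.83 in WT-EF (1.51e-06), -4.08 ± 0.71 in mut9 (0.000349), -3.06 ± 0.66 in DAF (0.00543), -2.99 ± 0.67 in DAF-mut9 (0.0159) and -2.83 ± 0.64 in Δ22 (0.0204). Without replicate 2 of iEF the DAF-mut9 value was -2.34 (adjusted p = 0.0518) and the Δ22 value -2.06 (adjusted p = 0.128). The DAF-mut9 call was also lost without replicate 1 (adjusted p = 0.110) or 2 (0.119) of DAF-mut9. The Δ22 call was also lost without replicate 1 (adjusted p = 0.0758) or 3 (0.125) of Δ22. The annotation overlaps 94 exon bases of CXCL6 with the pseudogene PPBPP1. CXCL5, the closest relative of CXCL6, stayed at or below 0.116 CPM in every library.

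CCL20, which draws CCR6-bearing dendritic cells and T cells, lies on chromosome 2 (GRCh37) between bases 228670455 and 228682280. It was at 21.8, 71.1 and 71.95 CPM in iEF, 2.77, 1.86 and 0.852 in iLuc and 2.79, 3.97 and 2.09 in WT-EF. mut9 held 12.97, 3.19 and 11.3 CPM, DAF 4.01, 20.8 and 7.35, DAF-mut9 3.49, 7.49 and 12.9 and Δ22 6.42, 17.8 and 5.15 CPM. Every library of the 6 groups lay below every iEF library, iLuc and WT-EF overlapped, the 4 mutants overlapped one another, and mut9 and DAF-mut9 also overlapped WT-EF. All 6 differences from iEF were called, between -2.36 ± 0.61 in mut9 (adjusted p = 0.0102) and -4.78 ± 0.69 in iLuc (adjusted p = 8.41e-06). The CCL20 call was lost in mut9 without replicate 3 of iEF (adjusted p = 0.0664) or replicate 2 of mut9 (0.0535). In DAF it was lost without replicate 3 of iEF or replicate 1 or 3 of DAF (0.0709 to 0.0909), and in DAF-mut9 without replicate 3 of iEF or replicate 1 or 2 of DAF-mut9 (0.0990 to 0.113). In Δ22 it was lost without replicate 2 or 3 of iEF or replicate 1 or 3 of Δ22 (0.0518 to 0.197).

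**Figure D2:**
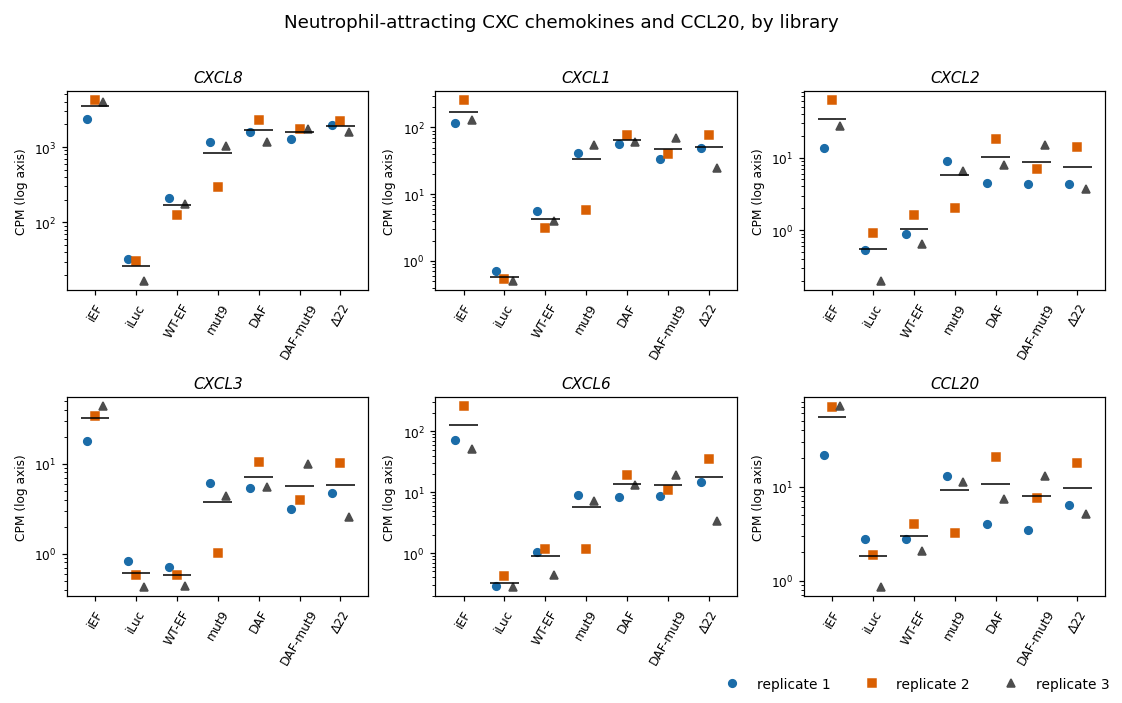
CPM (log axis) of 5 neutrophil-attracting CXC chemokine genes and CCL20 in each library of the 7 groups, with symbols for replicates 1, 2 and 3 and a bar for the group mean. iEF is highest and iLuc or WT-EF lowest in each panel, and mut9 replicate 2 (square) drops well below the other mut9 libraries, to 293 CPM for CXCL8.

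CXCL9, CXCL10 and CXCL11, the interferon-inducible CXCR3 ligands, lie together on chromosome 4 (GRCh37) between bases 76922428 and 76962568, and none of them was called lower than iEF in a mutant. CXCL9 was scarce in iEF at 0.140, 1.56 and 0.730 CPM and close to absent in iLuc (1, 1 and 2 counts) and WT-EF (2, 1 and 1 counts). DAF raised it to 8.21, 30.99 and 12.04 CPM and DAF-mut9 to 1.98, 7.76 and 5.50 CPM, and all 6 of these libraries exceeded all iEF libraries. In Δ22 it was at 1.48, 6.33 and 1.19 CPM, overlapping iEF, and in mut9 at 1.16, 0.393 and 1.05 CPM, also overlapping iEF. DAF was 21.8-fold above iEF (log2 fold change 4.45 ± 0.53 (SE), adjusted p = 1.85e-05), and DAF-mut9 6.76-fold above (log2 fold change 2.76 ± 0.52 (SE), adjusted p = 0.00543). For Δ22 the difference was 1.88 ± 0.53 with an adjusted p of 0.0639, and 1.89 with 0.0198 in a fit of just the compared groups. iLuc and WT-EF, taken at a floor of 3 counts per library, were each at least 11.1-fold lower than iEF (adjusted p = 0.000819 and 0.00151). With the authors' ComBat values 3 of these CXCL9 calls were lost, in DAF-mut9 (2.43, adjusted p = 0.0565), iLuc (-1.82, adjusted p = 0.116) and WT-EF (-1.83, adjusted p = 0.140).

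CXCL10 was at 8.92, 30.2 and 14.3 CPM in iEF, 1.54, 1.57 and 0.727 in iLuc and 1.06, 2.13 and 1.11 in WT-EF. Both low groups were clear of iEF (log2 fold change -3.71 ± 0.65 (SE), adjusted p = 8.21e-05 for iLuc, and -3.58 ± 0.64, adjusted p = 0.000188 for WT-EF). In mut9 it was at 29.2, 3.49 and 18.2 CPM, in DAF at 29.9, 81.9 and 33.8, in DAF-mut9 at 13.02, 27.5 and 22.3 and in Δ22 at 11.3, 35.8 and 6.97 CPM. All 4 mutant groups overlapped iEF and none was called, DAF being the highest at 1.45 ± 0.54 on the log2 scale (adjusted p = 0.126). DAF was called higher in a fit of just the compared groups (1.47, adjusted p = 0.00019) and with no low-count filter. CXCL11 followed with 5.16, 15.2 and 8.24 CPM in iEF, 1.34, 1.06 and 0.225 in iLuc, 0.769, 0.774 and 0.516 in WT-EF and 11.03, 1.47 and 5.96 in mut9. DAF held 9.55, 20.3 and 12.2 CPM, DAF-mut9 4.72, 9.36 and 9.54 and Δ22 3.79, 11.99 and 2.95 CPM. Only iLuc (log2 fold change -3.42 ± 0.64 (SE), adjusted p = 0.000192) and WT-EF (log2 fold change -3.74 ± 0.66 (SE), adjusted p = 0.000172) differed from iEF.

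CCL2, CCL7 and CCL8, the monocyte chemoattractant proteins MCP-1, MCP-3 and MCP-2, are neighbors on chromosome 17 (GRCh37), between bases 32582293 and 32648421. CCL2 was the second most abundant chemokine transcript per kilobase in every group except iLuc, where it ranked the fourth. It was at 284, 741 and 245 CPM in iEF, 1.98, 2.17 and 2.51 in iLuc and 14.8, 18.6 and 8.28 in WT-EF, with no overlap between these groups. iLuc was 175-fold below iEF (log2 fold change -7.45 ± 0.61 (SE), adjusted p = 3.14e-09) and WT-EF 28.9-fold below (log2 fold change -4.85 ± 0.53 (SE), adjusted p = 5.03e-07). In mut9 CCL2 stood at 420.4, 85.97 and 222 CPM, in DAF at 384, 884 and 499, in DAF-mut9 at 198, 367 and 375 and in Δ22 at 231, 558 and 201 CPM. These 4 groups overlapped iEF, and none was called. The 95% interval of the log2 difference from iEF was -1.51 to 0.40 in mut9, -0.39 to 1.46 in DAF and -1.27 to 0.58 in Δ22.

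CCL7 and CCL8 were rare. CCL7 had 5, 18 and 11 counts in the iEF libraries, 0, 0 and 0 in iLuc and 1, 3 and 0 in WT-EF. DAF held 56, 129 and 49 counts, or 1.53, 3.89 and 1.53 CPM against 0.117, 0.563 and 0.297 CPM in iEF. The DAF libraries were all above iEF (log2 fold change 2.83 ± 0.56 (SE), adjusted p = 0.00338), whereas mut9 (1.20, 0.344 and 0.291 CPM), DAF-mut9 (0.360, 1.32 and 0.502 CPM) and Δ22 (0.631, 1.76 and 0.353 CPM) overlapped it. iLuc and WT-EF were at least 4.47-fold and 4.48-fold lower than iEF (adjusted p = 0.00101 and 0.014), the latter not without replicate 2 of iEF (0.0517) or replicate 3 of iEF (0.0508). CCL8 counts were 2, 33 and 1 in iEF, 0, 0 and 0 in iLuc, 0, 0 and 0 in WT-EF, 1, 0 and 1 in mut9, 11, 24 and 18 in DAF, 3, 6 and 4 in DAF-mut9 and 5, 11 and 1 in Δ22. Its calls against iEF rested on replicate 2, since the other two iEF libraries had no more than 2 counts, and the adjusted p without it was 0.0659 for iLuc, 0.0916 for WT-EF and 0.607 for mut9. Without it CCL8 was higher in DAF than in iEF (log2 fold change 3.37, adjusted p = 0.0207).

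**Figure D3:**
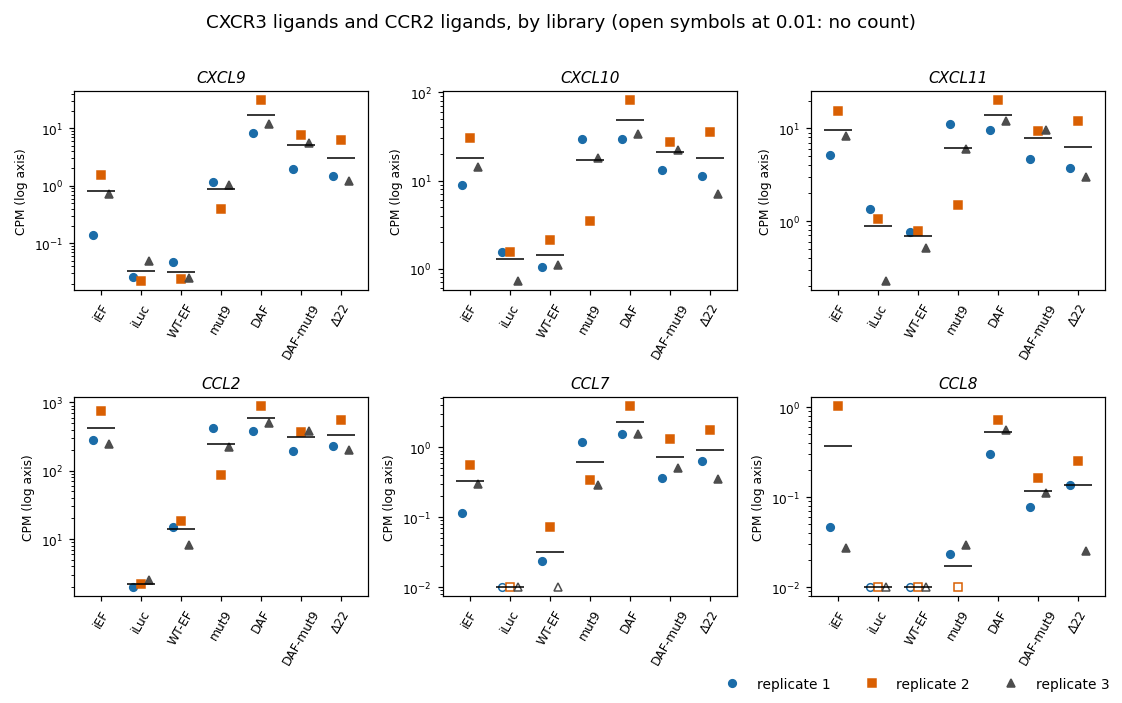
CPM (log axis) of the CXCR3 ligands and CCR2 ligands in each library of the 7 groups, with symbols for replicates 1, 2 and 3 and a bar for the group mean; open symbols at 0.01 mark libraries without a count. iLuc and WT-EF have the lowest means in each panel (with mut9 near them for CCL8), and DAF has the highest, reaching 8.21 to 31.0 CPM for CXCL9, while the other mutants lie on either side of iEF.

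CX3CL1 (fractalkine) is a membrane-anchored chemokine that ADAM10 and ADAM17 release, and its gene lies on chromosome 16 (GRCh37) between bases 57406389 and 57418956. It was at 5.27, 31.6 and 4.16 CPM in iEF, 0.205, 0.155 and 0.175 in iLuc and 1.03, 1.35 and 1.55 in WT-EF. The 3 groups did not overlap (iLuc, log2 fold change -5.99 ± 0.61 (SE), adjusted p = 7.72e-08, and WT-EF, -3.07 ± 0.48, adjusted p = 5.03e-05). mut9 held 5.09, 3.36 and 2.82 CPM, DAF 3.71, 4.49 and 4.28, DAF-mut9 5.06, 6.20 and 5.00 and Δ22 4.06, 7.22 and 2.70 CPM, all overlapping iEF, whose replicate 2 was far above the other two. mut9 was called lower (log2 fold change -1.54 ± 0.45 (SE), adjusted p = 0.0242), but not without replicate 2 of iEF (-0.42, adjusted p = 0.433), replicate 2 of mut9 (adjusted p = 0.192) or replicate 3 of mut9 (adjusted p = 0.0792). DAF was called lower without replicate 1 (-1.82, adjusted p = 0.0178) or 3 (-1.87, adjusted p = 0.0154) of iEF.

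How far the rescue cDNA restored the low state of iLuc was compared directly. WT-EF exceeded iLuc for 4 of 19 genes and fell below it for 0, where 18.3% of all genes differed, 9.78% higher and 8.52% lower. These were CXCL8 (log2 fold change 2.70 ± 0.39 (SE), adjusted p = 4.39e-05), CCL2 (log2 fold change 2.59 ± 0.53 (SE), adjusted p = 0.00129), CXCL1 (log2 fold change 2.87 ± 0.71 (SE), adjusted p = 0.00667) and CX3CL1 (log2 fold change 2.92 ± 0.64 (SE), adjusted p = 0.00259). For CXCL10 and CXCL11 the WT-EF and iLuc libraries overlapped, with 95% intervals of the log2 difference of -1.30 to 1.56 and -1.81 to 1.17.

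The internal EWS deletion was read by setting mut9 against WT-EF. mut9 exceeded WT-EF for 10 of 19 genes and fell below it for 0, against 6.15% changed and 4.95% higher among all genes. They were 5 ELR genes (CXCL1, CXCL2, CXCL3, CXCL6 and CXCL8), the 3 CXCR3 ligands, CCL2 and CCL7. CCL2 differed by 4.30 ± 0.52 on the log2 scale (adjusted p = 4.2e-05), CXCL10 by 3.86 ± 0.65 (0.000839) and CXCL8 by 2.29 ± 0.38 (0.000849). The median over the 19 genes was 2.70 and over all genes 0.05. Without replicate 1 of mut9 the count was 6, since CXCL2, CXCL3, CXCL6 and CXCL11 were lost, and without replicate 2 of mut9 it was 12. The CXCL6 call was lost as well with no replicate block (adjusted p = 0.0563), without any 1 WT-EF library (0.0681 to 0.136) and without replicate 3 of mut9 (0.134). CXCL2 and CXCL3 were lost without replicate 2 (adjusted p = 0.0675 and 0.0787) or 3 (0.0789 and 0.0841) of WT-EF, CXCL3 without replicate 3 of mut9 (0.0519) and CXCL9 with ComBat values (0.128).

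The tyrosine substitutions were read by setting DAF against WT-EF. DAF exceeded WT-EF for 13 genes and fell below it for 0, where 24.9% of all genes differed and 14.3% were higher. Among the 10 whose WT-EF libraries were above the floor of 3 counts, the differences ran from 1.66 ± 0.47 for CX3CL1 (adjusted p = 0.0123) to 5.39 ± 0.54 for CCL2 (adjusted p = 2.94e-07), with CXCL10 at 5.02 ± 0.66 (adjusted p = 7.9e-06) and CCL20 at 1.72 (adjusted p = 0.047). CXCL9 in DAF was at least 235-fold above the WT-EF floor of 3 counts. The CCL20 call was lost in DESeq2 (adjusted p = 0.0601) and without any 1 of 5 of the 6 libraries, down to 1.02 (adjusted p = 0.339) without replicate 2 of DAF. The CX3CL1 call was lost without replicate 1 (adjusted p = 0.0591) or 2 (0.0891) of WT-EF or replicate 3 of DAF (0.0713).

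The mutants were also set against one another. mut9 was below DAF for 2 of 19 genes, CXCL9 (log2 fold change -3.89 ± 0.52 (SE), adjusted p = 8.43e-05) and CCL8 (adjusted p = 0.00966, at least 6.89-fold), where 6.61% of all genes differed and 3.48% were lower. Without replicate 2 of mut9 the CCL8 call was lost (adjusted p = 0.137), and without replicate 1 of mut9 CCL2 (-1.89, adjusted p = 0.0195) and CCL7 (-3.07, adjusted p = 0.000722) joined. With no low-count filter this count was 10. DAF-mut9 was above mut9 for CXCL9 alone (log2 fold change 2.20 ± 0.52 (SE), adjusted p = 0.00725), against 9.83% changed, 5.15% higher and 4.68% lower among all genes, and not without replicate 3 of DAF-mut9 (adjusted p = 0.0543) or with ComBat values (0.0560). With no low-count filter, or in a fit of just the compared groups, 4 genes were called there. DAF was above Δ22 for CXCL9 alone (log2 fold change 2.57 ± 0.47 (SE), adjusted p = 0.00563), against 0.972% changed, 0.789% higher and 0.183% lower. That call was lost without replicate 2 of DAF (adjusted p = 0.0653), without replicate 3 of Δ22 (adjusted p = 0.0544), with ComBat values (adjusted p = 0.0716) and with no replicate block (adjusted p = 0.0879). The count was 5 in a fit of just the compared groups and 6 with no low-count filter. For these alternative fits the share over all genes was not computed. Between DAF-mut9 and Δ22 edgeR and DESeq2 called 0 of 19 genes, 0 had an unadjusted p below 0.05, and 0% of all genes were called, with 671 of 30549 at an unadjusted p below 0.05 in edgeR. For CXCL8 the 95% interval of that log2 difference was -1.03 to 0.49, for CCL2 -0.89 to 0.97 and for CXCL9 -0.10 to 1.85.

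Genes of the NF-κB pathway were read from a list of 17 NF-κB factors and feedback genes that NF-κB can itself induce, 15 of them tested. In iLuc 12 were lower and 0 higher than iEF, beside 22.4% of all genes lower, and WT-EF lowered 13 (16.9% of all genes). mut9 lowered 9 (8.33%), DAF-mut9 5 (2.14%), Δ22 6 (1.79%) and DAF 2 (4.02%). BIRC3, which restrains cell death downstream of TNF receptors, was at 530.2, 1392 and 1887 CPM in iEF, 6.32, 6.23 and 5.14 in iLuc and 32.03, 31.6 and 18.1 in WT-EF (iLuc, log2 fold change -7.71 ± 0.74 (SE), adjusted p = 3.09e-08). In mut9 BIRC3 was at 311, 41.3 and 213 CPM and in DAF at 139, 416 and 175 CPM, so replicate 2 of mut9 was again the lowest of its group and replicate 2 of DAF the highest. TNFAIP3 (A20), an inhibitor that NF-κB induces, was at 191, 278 and 482 CPM in iEF and 2.83, 4.13 and 6.24 CPM in iLuc (log2 fold change -6.14 ± 0.45 (SE), adjusted p = 7.3e-10). Smaller decreases in iLuc were seen for the subunits NFKB1 (-3.09 ± 0.31, adjusted p = 5.14e-08), NFKB2 (-2.89 ± 0.34, 6.15e-07), RELB (-3.24 ± 0.31, 3.93e-08) and RELA (-1.07 ± 0.12, 3.51e-07). The inhibitors NFKBIA (-2.35 ± 0.30) and NFKBIE (-2.23 ± 0.31), the inducible NFKBIZ (-1.96 ± 0.21), the A20 partner TNIP1 (-2.67 ± 0.28), the coregulator BCL3 (-2.69 ± 0.25) and the kinase IKBKB (-0.99 ± 0.11) were also lower there. The summed list was 698 CPM in replicate 2 of mut9 against 1387 and 1216 CPM in replicates 1 and 3.

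Of 15 inducing cytokines and receptors 13 were tested, and all 13 were lower in iLuc than in iEF, with 12 lower in WT-EF, 6 in mut9, 2 in DAF-mut9 and 3 in Δ22. The shares of all genes lower in these comparisons were 22.4%, 16.9%, 8.33%, 2.14% and 1.79%. IL1A was at 121, 315 and 212 CPM in iEF and 5.01, 4.13 and 3.66 CPM in iLuc (log2 fold change -5.57 ± 0.56 (SE), adjusted p = 6.55e-08). IL1B was at 158, 142 and 169 CPM in iEF, 2.03, 1.59 and 2.56 in iLuc and 97.9, 488 and 205 in DAF (log2 fold change -6.27 ± 0.60 (SE), adjusted p = 2.95e-08 for iLuc). Both encode interleukin-1, an inducer of CXCL8, and their receptor IL1R1 differed by -7.02 ± 0.30 (adjusted p = 3.76e-13). TNF (-3.81 ± 0.72), TNFRSF1B (-5.94 ± 0.44), TNFRSF1A (-1.23 ± 0.10), IL17RA (-0.59 ± 0.14), IFNGR1 (-1.73 ± 0.17) and IFNGR2 (-1.42 ± 0.13) were lower as well. The other 4 were LTA, LTB, IL1RN and IFNB1, all below 2 CPM. DAF lowered 3 genes of this list (IL1R1, IL1RN and IFNB1) and raised 1, TNFRSF1A (log2 fold change 0.37 ± 0.10 (SE), adjusted p = 0.0196). Of all genes 4.02% were lower and 3.41% higher in DAF.

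**Figure D4:**
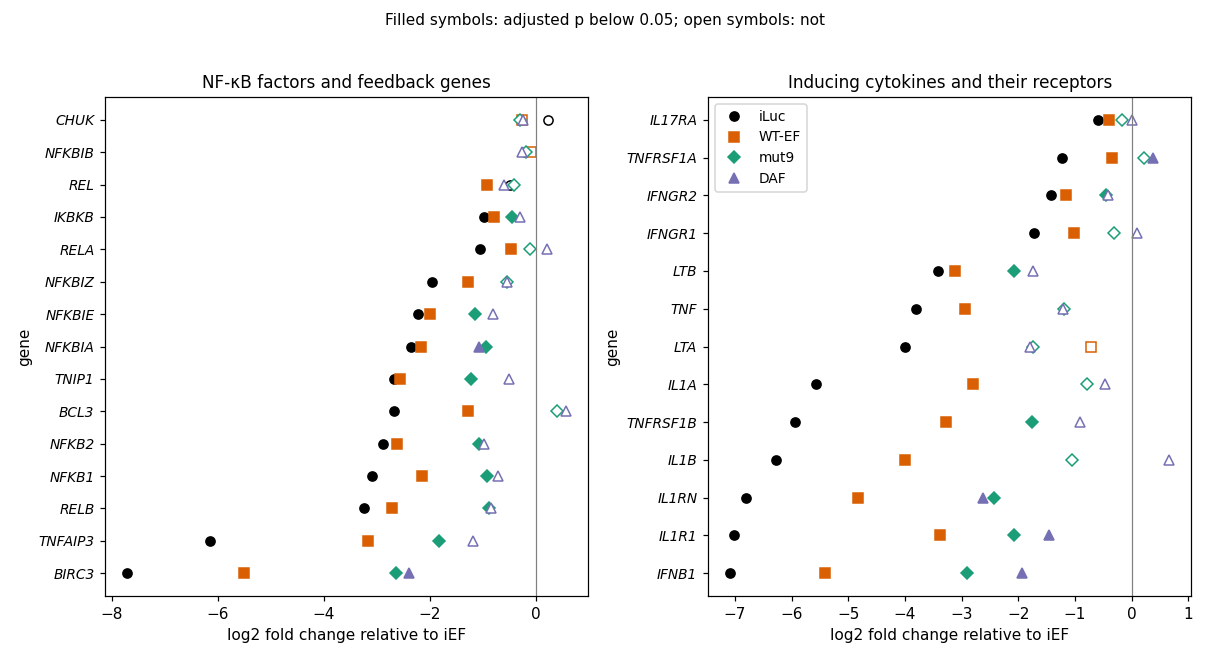
Log2 fold change relative to iEF (x axis) of 15 NF-κB factors and feedback genes (left) and 13 inducing cytokines and receptors (right), for iLuc, WT-EF, mut9 and DAF, with filled symbols at an adjusted p below 0.05. For iLuc 12 symbols on the left and 13 on the right are filled, all below 0, and BIRC3 is lowest on the left at -7.71.

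Chemokine receptors were scarce. Of 21 listed receptors 9 were tested, and the summed level of the list was 2.29 to 5.49 CPM in iEF and 1.00 to 1.79 CPM in iLuc. Named after their values were seen, CXCR6 was higher in iLuc (log2 fold change 1.73, adjusted p = 0.0399) and CCR4, ACKR4 and CCRL2 were lower, all below 2 CPM. That made 1 higher and 3 lower of the 9, beside 18.7% and 22.4% of all genes. Of 5 proteases that release or trim chemokines 4 were tested. ADAM10, the sheddase of CX3CL1 and CXCL16, was lower in iLuc (log2 fold change -1.41 ± 0.12 (SE), adjusted p = 6.64e-09). ADAM17 was not called there (log2 fold change -0.32 ± 0.13 (SE), adjusted p = 0.0559). DPP4, which also trims chemokines, was higher in iLuc (log2 fold change 1.76 ± 0.37 (SE), adjusted p = 0.000555), and its mean was below 4 CPM in both groups. MMP9, another trimming protease picked after its values were seen, was higher than iEF in mut9 (log2 fold change 2.54 ± 0.50 (SE), adjusted p = 0.0013) and DAF (log2 fold change 4.02 ± 0.53 (SE), adjusted p = 6.13e-05), at 55.5, 248 and 85.5 CPM in the DAF libraries. In WT-EF MMP9 was lower than iEF (log2 fold change -2.46 ± 0.57 (SE), adjusted p = 0.00234), and in iLuc it was not called (-1.24, adjusted p = 0.0641).

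The remaining 6 tested chemokine genes were not called in any of the 13 comparisons. CXCL16, the transmembrane ligand of CXCR6, was at 1.77 to 4.30 CPM over the 21 libraries and CCL28 at 0.436 to 1.63 CPM. CCL26 (eotaxin-3) lay at 0.0663 to 0.549 CPM, CXCL14 at 0 to 0.639 CPM, CXCL17 at 0 to 0.128 CPM and CXCL5 at 0 to 0.116 CPM. Under alternatives, CXCL14 was called lower than WT-EF in mut9 (adjusted p = 0.0354) and DAF (0.0107) in a fit of just the compared groups, likewise with no low-count filter (0.0341 and 0.00259), and higher in iLuc than in iEF without replicate 3 of iLuc (0.0329). In fits of only the compared groups CXCL16 was higher in mut9 than in WT-EF (adjusted p = 0.0343) and CCL28 higher in DAF-mut9 than in mut9 (0.0492). CXCL16 shares 172 exon bases with the antisense genes MED11 and ZMYND15, and the strand setting of the counting is not stated. A further 13 matched genes had a mean below 1 count per library, with totals over all libraries from 0 (CCL27) to 14 (CCL17). They were CCL1, CCL11, CCL13, CCL17, CCL19, CCL21, CCL22, CCL24, CCL25, CCL27, CXCL13, XCL1 and XCL2, and a difference between groups was not detectable for them at this depth.

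The authors' batch-adjusted table holds 9 of the 19 tested genes. CXCL8, CCL2, CXCL1, CXCL6, CX3CL1, CCL7, CXCL14, CCL8, CXCL17 and CXCL5 are not in it, so the 4 most abundant chemokine transcripts per kilobase of iEF cells are read here from the raw counts alone. With the adjusted values 5 of the 9 genes were called lower in iLuc and 5 in WT-EF than in iEF.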

How the data were processed

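RNA was measured in 21 libraries of 1 cell line, prepared with a ScriptSeq kit and sequenced as paired ends. Reads were aligned by the authors to hg19 with STAR (2.5.1b per the submitters' processing notes), and the deposited counts are whole reads per gene from HTSeq in its strict intersection mode. Which annotation release and which strand option were used is not given in the sources used here. A second deposited table holds ComBat signal values, which the authors adjusted for replicate set. Another table holds the authors' own DESeq2 comparisons (fold changes, errors and adjusted p-values) and was not used. Columns of no sample numbered 0, and 5 summary lines carried no values.

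Groups came from the sample titles and columns. Genes averaging 1 count or more over the libraries (30549 of 57820) were fitted with edgeR 4.0.16 in R 4.3.3 by the quasi-likelihood test with TMM scaling, on all 21 libraries, with group and replicate set as terms. Benjamini-Hochberg adjusted p below 0.05 was called, over all genes. Fold changes of a group with no library above 3 counts were set against that floor. CPM values are counts per M TMM-scaled counts. Symbols came from a reference table and matched 55538 of 57820 identifiers. DESeq2 1.42.0, RLE scaling, other filters, ComBat values, fits without the replicate set or with only the compared groups, and leaving out each library were alternatives. The method was tested on simulated data. Library depth was 32.9 to 46.2 M counts, and no pair of replicates was alike within sampling noise (chi-square per degree of freedom at least 15.3).

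The members and lists were chosen with earlier results of these data known. A member was described by library where it was called in at least 1 of 13 comparisons or reached a group mean of 5 CPM, and other pathway genes where they were called between iLuc and iEF with a group mean of at least 5 CPM.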

Additional observations from a re-analysis of the deposited data

How the results depend on the processing

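Of the 78 member calls, 49 held under every alternative, 29 were lost under at least 1, and 0 reversed. Each call was checked under every alternative that gave it a value. Leaving out a library lost the call in 69 of 468 checks. ComBat values lost 7 of 38, no replicate block 3 of 78, fits of only the compared groups 2 of 78 and DESeq2 1 of 77. RLE scaling, the filterByExpr filter and no low-count filter each lost 0 of 78. Leaving out 1 library gave 12 to 14 called genes in iLuc against iEF, 11 to 13 in WT-EF, 5 to 8 in mut9, 3 to 8 in DAF, 1 to 5 in DAF-mut9 and 0 to 5 in Δ22. It gave 4 to 4 in WT-EF against iLuc, 6 to 12 in mut9 against WT-EF, 11 to 13 in DAF against WT-EF, 0 to 1 in DAF-mut9 against mut9, 1 to 4 in mut9 against DAF, 0 to 1 in DAF against Δ22 and 0 to 0 in DAF-mut9 against Δ22. ComBat values, which exist for 9 of the genes, called 5 in iLuc, 5 in WT-EF, 3 in mut9, 3 in DAF, 2 in DAF-mut9 and 2 in Δ22 against iEF. They called 0 in WT-EF against iLuc, 4 in mut9 and 6 in DAF against WT-EF, 0 in DAF-mut9 against mut9, 1 in mut9 against DAF and 0 in DAF against Δ22. With no low-count filter the counts rose to 11 in DAF, 8 in DAF-mut9 and 11 in Δ22 against iEF, 7 in WT-EF against iLuc, 4 in DAF-mut9 against mut9, 10 in mut9 against DAF and 6 in DAF against Δ22. Fits of only the compared groups gave 9 in DAF, 7 in DAF-mut9 and 7 in Δ22 against iEF, 4 in DAF-mut9 against mut9 and 5 in DAF against Δ22. Shares over all genes were not computed for any of the alternatives, so these counts have no background to be set against. The cause of these changes was not tested. With no replicate block, 0 genes were called in DAF against Δ22. The replicate numbers gave correlations of deviations from -0.0633 to 0.375 over 63 same-numbered pairs (median 0.124, other pairs -0.0767), above 0.1 in 37. For 19 of 21 libraries the mean correlation with libraries of other groups was highest for their own number. The block stayed in the model because the authors adjusted their table by replicate set. Depth limits the genes with few counts, CCL7, CCL8 and CXCL9 in iLuc and WT-EF above all.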
